A study of Mus musculus with 2 samples.

Results

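The genes described here are the 5 that a cell needs to make, package and take back dopamine: Th, Ddc, Slc18a2, Slc6a3 and Gch1. They were chosen by name as 5 of the 31054 gene rows, and each is present in both single-cell libraries of the mouse preoptic area, the part of the anterior hypothalamus that holds neurons for sleep, body temperature and reproduction. The SD library came from mice kept awake for 6 h (labelled SD_6h), and the SD+RS library from mice kept awake in the same way and then allowed 2 h of recovery sleep. Both groups were C57BL/6J mice aged 9 to 10 weeks with males and females pooled. How many mice went into each pool was not stated. Cells were prepared by Act-seq, which blocks new transcription during dissociation, and counted on the 10x Genomics platform. Each group is 1 library, so no difference between groups has a replicate check and no test between them was made. All intervals are 95% intervals that cover counting error only: exact Poisson for a level, exact binomial (Clopper-Pearson) for a share, and an exact conditional binomial interval for a ratio.

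Tyrosine hydroxylase, the product of Th, converts tyrosine to L-DOPA and is the rate-limiting enzyme of dopamine synthesis. It needs tetrahydrobiopterin, whose synthesis is limited by GTP cyclohydrolase, the product of Gch1. Ddc encodes aromatic L-amino acid decarboxylase, which turns L-DOPA into dopamine. Slc18a2 encodes VMAT2, which loads monoamines into vesicles, and Slc6a3 encodes the dopamine transporter, which takes released dopamine back up. Hypothalamic neurons are known to include cells with only some of these genes, such as neurons with Th and no Ddc.

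In the mm10 annotation Th lies on chromosome 7 at 142892752 to 142931128 on the minus strand, Ddc on chromosome 11 at 11814101 to 11898144 on the minus strand, and Slc18a2 on chromosome 19 at 59260896 to 59296012 on the plus strand. Slc6a3 lies on chromosome 13 at 73536747 to 73578672 on the plus strand and Gch1 on chromosome 14 at 47153895 to 47189413 on the minus strand. Ddc, Slc18a2 and Gch1 overlap other annotated genes on the opposite strand (1700042O10Rik, Gm29261 and Gm49134), and Gch1 also overlaps Gm18811 on its own strand. How reads in these overlaps were assigned was not stated.

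Th, Ddc and Slc18a2 are the genes most often held together below, so the 250 bases before their annotated starts are shown, from RefSeq on GRCm38.p6 and on each gene's own strand. The RefSeq start of Th lies inside the span given above, which begins at 142931128 on the minus strand. The 2 annotations therefore place the Th start differently. Capitals mark matches to a cAMP response element (TGACGTCA), an NR4A element (AAAGGTCA) or a TATA box (TATAAA), each searched on both strands. Ddc is shown for both of its listed starts, since it is known to be transcribed from different first exons in neuronal and non-neuronal tissue and was found here in neurons and in other cells.
Th, chr7:142899996-142900245, minus strand: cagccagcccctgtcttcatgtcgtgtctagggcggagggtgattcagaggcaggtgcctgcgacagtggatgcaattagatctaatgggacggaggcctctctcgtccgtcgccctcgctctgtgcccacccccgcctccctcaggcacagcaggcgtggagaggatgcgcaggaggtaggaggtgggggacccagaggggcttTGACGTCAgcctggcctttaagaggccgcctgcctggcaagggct
Ddc, first listed start, chr11:11898145-11898394, minus strand: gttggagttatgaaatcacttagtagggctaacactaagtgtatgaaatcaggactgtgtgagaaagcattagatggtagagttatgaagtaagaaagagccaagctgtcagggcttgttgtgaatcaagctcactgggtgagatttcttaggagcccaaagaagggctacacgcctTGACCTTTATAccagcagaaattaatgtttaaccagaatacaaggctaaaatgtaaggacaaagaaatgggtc
Ddc, other listed start, chr11:11890409-11890658, minus strand: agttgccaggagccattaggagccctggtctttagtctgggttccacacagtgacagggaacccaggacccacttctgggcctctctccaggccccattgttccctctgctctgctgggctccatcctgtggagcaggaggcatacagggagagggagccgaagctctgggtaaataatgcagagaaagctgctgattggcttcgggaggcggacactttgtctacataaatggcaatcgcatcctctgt
Slc18a2, chr19:59260628-59260877, plus strand: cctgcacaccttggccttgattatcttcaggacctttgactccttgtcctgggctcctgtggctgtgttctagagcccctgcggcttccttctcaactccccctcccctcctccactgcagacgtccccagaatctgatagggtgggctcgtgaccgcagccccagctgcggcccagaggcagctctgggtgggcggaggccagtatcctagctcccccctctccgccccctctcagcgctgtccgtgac
The Th window holds TGACGTCA starting 45 bases before the start, a motif found in 1.55% of 32851 windows of the same length. The first Ddc window holds AAAGGTCA on the opposite strand 73 bases before the start, found in 1.34% of windows, and it overlaps TATAAA on the opposite strand 68 bases before the start, found in 12.4%. The other Ddc window and the Slc18a2 window hold none of these letters. A match is a description of the letters and not a measured site.

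Neurons were taken as cells with at least 10 UMIs (unique molecular identifiers, each one captured RNA molecule) of Snap25 plus Syt1 and at least 2000 detected genes. The rule alone gave 4116 SD and 4283 SD+RS cells, and 3723 and 4071 were left after removal of cells with 20% or more mitochondrial UMIs and of called doublets. Their median depths were 22223 and 21706 UMIs. The libraries differed in sex: 1317 SD and 3033 SD+RS neurons had UMIs of Xist and of no Y-linked gene counted, against 2044 and 856 with the reverse. The 2 libraries share 23 cell barcodes, 18 of them among the cells kept. Astrocytes separated by library, with 1767 SD and 84 SD+RS cells in 1 astrocyte cluster, and 1 shallow neuron cluster held 158 SD and 6 SD+RS cells.

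Th was found in few neurons, and a minority of those carried most of its UMIs. At least 1 Th UMI was found in 328 SD neurons (8.81%, interval 7.92 to 9.77) and 324 SD+RS neurons (7.96%, 7.15 to 8.83). The summed level was 14.1 CPM (the gene's UMIs per 1000000 UMIs of the same cells, interval 13.4 to 14.9) in SD and 16.3 CPM (15.5 to 17.1) in SD+RS. The median neuron with Th had 2 Th UMIs in SD and 3 in SD+RS. The neurons with at least 5 Th UMIs, 91 in SD and 114 in SD+RS, held 64.9% and 75.1% of all neuronal Th UMIs. The highest single neuron had 36 Th UMIs in SD and 66 in SD+RS.

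Ddc was the most widespread of the 5. It was found in 1014 SD neurons (27.2%) and 1204 SD+RS neurons (29.6%), at 32.3 CPM (31.1 to 33.5) and 37.1 CPM (35.9 to 38.4). Slc18a2 was found in 6.88% and 7.54% of neurons, at 5.60 CPM (5.12 to 6.12) and 6.95 CPM (6.43 to 7.50). Gch1 was found in 4.43% and 4.27%, at 2.27 CPM (1.97 to 2.61) and 2.26 CPM (1.97 to 2.58).

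Slc6a3 was nearly undetected. The SD neurons held 8 UMIs and the SD+RS neurons 7, never more than 1 in a cell, which is 0.0907 CPM (0.0392 to 0.179) and 0.0733 CPM (0.0295 to 0.151). Those cells lay in 6 neuron clusters in SD and 7 in SD+RS. In oligodendrocyte precursors, a class in which the transporter is not known to work, 3 of 175 SD+RS cells (1.71%, median depth 4186 UMIs) had a UMI, against 0 of 264 in SD (median depth 4462 UMIs), and the neuronal shares were 0.215% and 0.172%. Whether these UMIs are background was not tested, and no pattern is read from them.

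Th UMIs were nearly all in neurons and Slc18a2 UMIs mostly so, Ddc was shared with endothelial cells and oligodendrocytes, and most Gch1 was outside neurons. Neurons held 92.9% of all Th UMIs in SD and 96.4% in SD+RS, and 84.2% and 89.97% of Slc18a2 UMIs. For Ddc the neuronal share was 65.3% and 74.7%. In astrocytes Th stood at 1.6 CPM (0.828 to 2.80) and 0.968 CPM (0.264 to 2.48), with a UMI in 0.574% and 0.314% of cells at median depths of 3442 and 3139 UMIs. With each cell thinned to 2000 UMIs, the expected share of cells with Th was 2.07% and 2.18% in neurons and 0.316% and 0.213% in astrocytes.

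Endothelial cells, which line the vessels and use tetrahydrobiopterin for nitric oxide synthase, had the highest Gch1 level of all named classes. It was 192 CPM (179 to 207) in SD and 137 CPM (123 to 152) in SD+RS, and 59.8% and 43.5% of endothelial cells had a UMI. They held 75.6% of all Gch1 UMIs in SD and 58.3% in SD+RS, against 20.9% and 37.8% in neurons. Endothelial Gch1 was lower in SD+RS, with a log2 ratio of SD+RS over SD of -0.49 (-0.68 to -0.30). The ratio was -0.42 (-0.66 to -0.18) in endothelial cells with Xist only and -0.75 (-1.24 to -0.30) in those with Y-linked UMIs only. The class joins a cluster of 464 SD and 290 SD+RS cells with one of 160 and 133 cells led by Rgs5 and Vtn, which mark the mural cells of vessels, and in which mural markers summed to 9255 and 10881 CPM, against 1137 and 941 CPM in the former. Gch1 had log2 ratios of -0.50 (-0.75 to -0.25) in the former and -0.42 (-0.72 to -0.13) in the latter. The part of mural RNA in this was not tested. The ratio over the class did not reach 1.5-fold, which 4.82% of 6620 genes measured in these cells did in the higher and 2.55% in the lower direction.

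Ddc was also high outside neurons, at 128 CPM (117 to 140.4) and 144 CPM (129 to 159.7) in endothelial cells and at 55.4 CPM (51.3 to 59.7) and 61.6 CPM (56.2 to 67.3) in oligodendrocytes. Both levels lay above the neuronal mean. Astrocytes, with 2.40 and 1.69 CPM, did not share this. The SD+RS over SD log2 ratio of Ddc was 0.16 (-0.04 to 0.36) in endothelial cells and 0.15 (-0.02 to 0.32) in oligodendrocytes. Neither reached 1.5-fold, which 3.08% of 8387 genes did in the higher and 2.80% in the lower direction in oligodendrocytes.

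**Figure D1:**
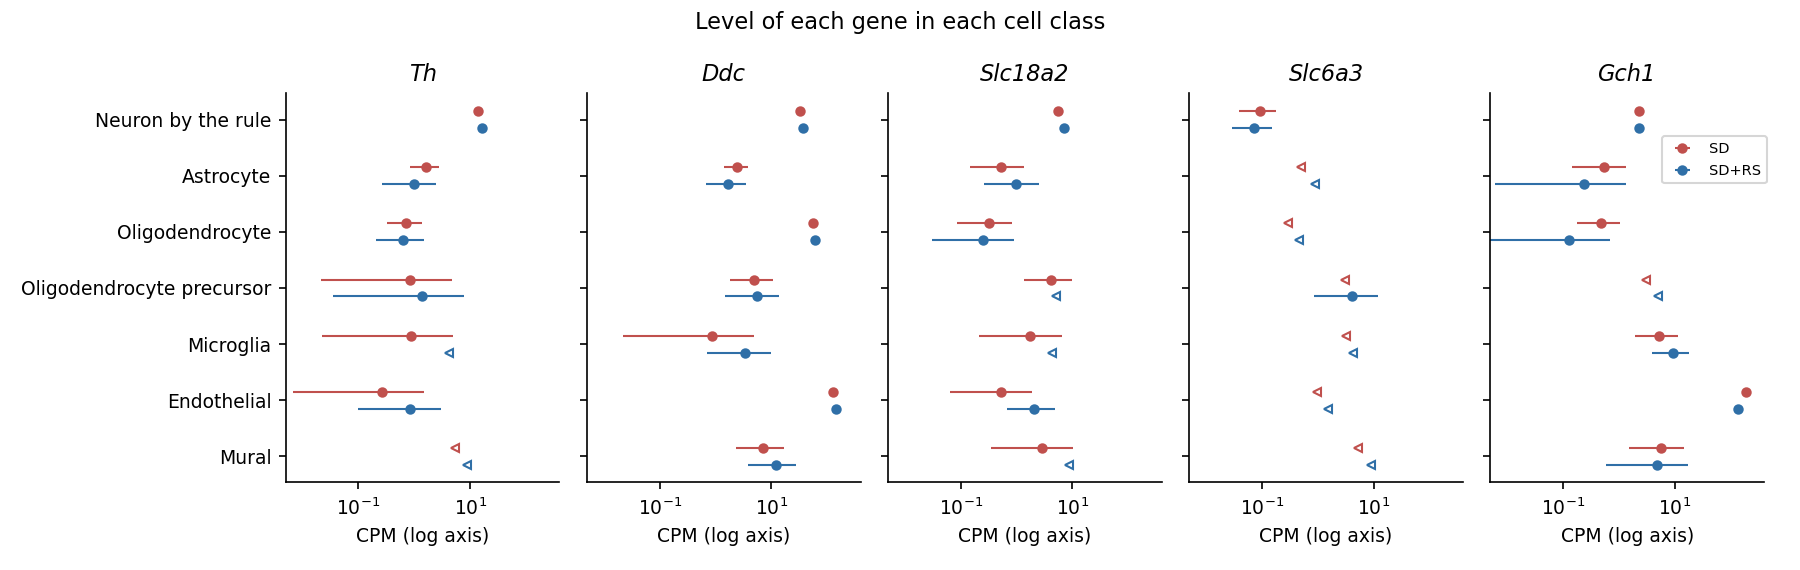
Level of each of the 5 genes (CPM, log axis) in neurons and 6 other cell classes, with 95% Poisson intervals; SD in red, SD+RS in blue, open triangles marking the upper limit where no UMI was found. Th is highest in neurons, whereas Gch1 reaches 192 CPM and Ddc 144 CPM in endothelial cells.

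No neuron held all 5 genes: 0 of 3723 in SD and 0 of 4071 in SD+RS. By a limit of 3 counts of the total this allows shares of up to 0.0806% and 0.0737%, and the exact binomial intervals end at 0.0990% and 0.0906%. These limit neurons with a UMI of all 5, not neurons expressing them, since Slc6a3 was seen in so few cells. To hold a gene means here to have at least 1 UMI of it. Most neurons held none, 2300 (61.8%) in SD and 2453 (60.3%) in SD+RS. A single gene was held by 1140 and 1284 neurons, and in 777 and 942 of these it was Ddc. The largest combination seen was Th, Ddc, Slc18a2 and Gch1, in 2 SD and 6 SD+RS neurons.

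Th, Ddc and Slc18a2, the genes for synthesis from tyrosine and for vesicle loading, were held together by 40 SD neurons (1.07%, 0.769 to 1.46) and 43 SD+RS neurons (1.06%, 0.765 to 1.42). These are called three-gene neurons below. Their Th UMIs ran from 1 to 13 with a median of 3 in SD and from 1 to 28 with a median of 6 in SD+RS. Ddc ran from 1 to 22 (median 6) and from 1 to 23 (median 4). Slc18a2 had a median of 1 and 2, so many of these cells pass on a single Slc18a2 molecule. With at least 2 UMIs asked of each gene, 15 and 21 neurons remained.

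Th occurred more often without the rest of the pathway than with it. Of the neurons with Th, 183 in SD and 163 in SD+RS had neither Ddc nor Slc18a2. Ddc was found in 38.1% (32.8 to 43.6) and 40.4% (35.04 to 46.0) of Th neurons, against 26.2% and 28.6% of neurons without Th. The share with Slc18a2 was 18.3% (14.3 to 22.9) and 22.5% (18.1 to 27.5), against 5.77% and 6.24%. Gch1 was in 11.3% (8.07 to 15.2) and 13.6% (10.04 to 17.8) of Th neurons, against 3.77% and 3.47%. Of the neurons with Slc18a2, 43.4% and 43.3% held Ddc, and 23.4% and 23.8% held Th. Th neurons were also deeper, with medians of 24688 and 24122 UMIs against 22032 and 21533.

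Th neurons without a Ddc UMI were not limited to cells with a trace of Th. Of the neurons with at least 10 Th UMIs, a limit chosen after the values were seen, 7 of 25 in SD (12.1% to 49.4%) and 19 of 43 in SD+RS (29.1% to 60.1%) held Ddc. Slc18a2 was held by 9 and 13 of them, and Slc32a1, the vesicular GABA transporter, by 24 and 40. In SD, 6 of the 25 lay in a small cluster led by Lmo2, Nfix and Myh13, described below. A neuron without a Ddc UMI may still have held Ddc RNA that was not captured.

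**Figure D2:**
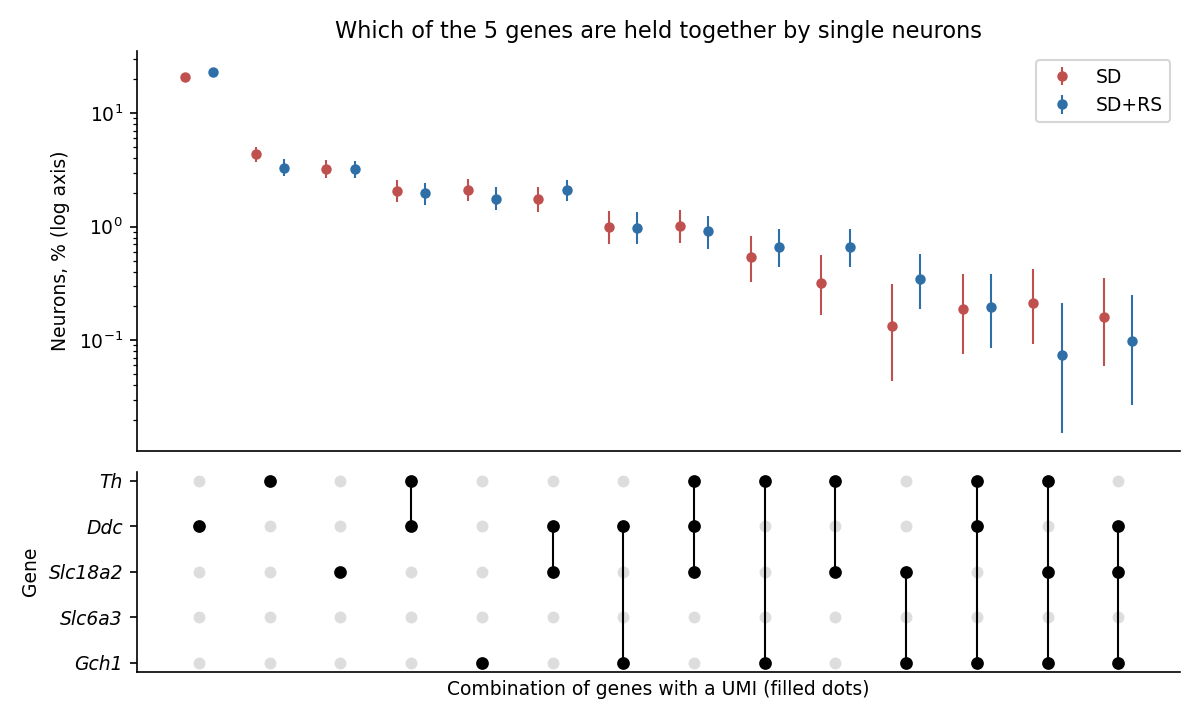
Share of neurons (%, log axis) with each combination of the 5 genes, with 95% Clopper-Pearson intervals, SD in red and SD+RS in blue; filled dots show the genes held. Ddc alone is the most common, and Th with Ddc and Slc18a2 is held by about 1% of neurons when Gch1 is left aside.

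Neurons were clustered without the 5 genes or the other dopamine genes, and each cluster is named here by its leading genes. Of 47 clusters, 36 had at least 30 cells in each library. The GABAergic cluster led by Sp8, Col25a1 and Onecut2, with 64 SD and 70 SD+RS cells, ranked first of these 36 in Th, in Ddc and in Slc18a2 in both libraries. Th stood at 114 CPM (97.6 to 132) and 126 CPM (109 to 145) and Ddc at 276 CPM (250.2 to 304) and 428 CPM (396 to 461). In SD+RS its Th interval overlapped that of the next cluster, Prok2 Adcyap1 Adamtsl2, and for Slc18a2 the intervals overlapped in both libraries. Slc18a2 stood at 39.3 CPM (29.95 to 50.8) and 54.4 CPM (43.5 to 67.3). Gch1 had 1 UMI there in SD and 0 in SD+RS. Low Gch1 was common among the 36 clusters, with a median of 1.12 CPM in SD and 1.21 CPM in SD+RS. It was at 0 in 4 and 8 of them. The Sp8 Col25a1 Onecut2 cluster held 22 of the 40 three-gene neurons in SD and 18 of the 43 in SD+RS.

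Several other clusters had Th with almost no Ddc. In the Sostdc1 Amigo2 Prkcd cluster Th was at 43.3 CPM (37.4 to 49.8) in SD and 73.7 CPM (65.5 to 82.7) in SD+RS, with Ddc at 1.79 and 7.02 CPM. The Tac2 Sntb1 Gpr139 cluster had Th at 31.6 CPM (25.4 to 38.9) and 48.8 CPM (40.5 to 58.3), Ddc at 1.42 and 0.806 CPM, and Gch1 at 11.01 and 15.7 CPM. Its Slc18a2 level was 1.07 and 0.806 CPM, so Th stood there beside its cofactor gene with little decarboxylase or vesicle transporter RNA. The magnocellular Oxt Avp Prph cluster, which makes oxytocin and vasopressin, had Th at 35.1 and 34.6 CPM and Ddc at 2.70 and 1.77 CPM.

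The highest Th level of the 47 clusters was in a very small one led by Lmo2, Nfix and Myh13, with 14 SD and 13 SD+RS cells. Th reached 487 CPM (408 to 578) and 222 CPM (166 to 292), and 11 and 9 of its cells held Th. Its Th UMIs per cell ran from 0 to 36 in SD and from 0 to 17 in SD+RS. The cluster held 0 Ddc UMIs in SD and 1 in SD+RS, 1 and 0 Slc18a2 UMIs, and 0 Gch1 UMIs in both. In the authors' deposited table for both libraries, Th was listed in 80.8% of cells of cluster i25, whose leading genes include Lmo2 and Nfix, against 7.30% of other cells.

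The reverse pattern, Ddc with little or no Th, was common. Ddc without Th or Slc18a2 was held by 818 SD and 983 SD+RS neurons, spread over many clusters, and the Trh Otp Ebf1 cluster is 1 example of the pattern. The Trh Otp Ebf1 cluster had Ddc at 94.6 CPM (81.4 to 109) and 78.3 CPM (65.03 to 93.4) and Slc18a2 at 24.8 and 38.8 CPM, with 2 Th UMIs in SD and 0 in SD+RS. The Ghrh Trh Cbln1 cluster had Ddc at 102 and 145 CPM with Th at 5.38 CPM (2.16 to 11.1) in SD and 34.5 CPM (24.9 to 46.4) in SD+RS. It also had the highest SD level of Gch1 among the 36 clusters, 18.5 CPM (11.8 to 27.5), against 8.81 CPM (4.40 to 15.8) in SD+RS. The authors' deposited table lists Slc18a2 in 29.7% of cells of cluster e2, led by Trh and Otp, against 6.60% of other cells. In the same authors' deposited table Ddc is listed in 73.9% and Th in 40.9% of cells of cluster i28, led by Ddc, Mef2c, Six3 and Col25a1.

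**Figure D3:**
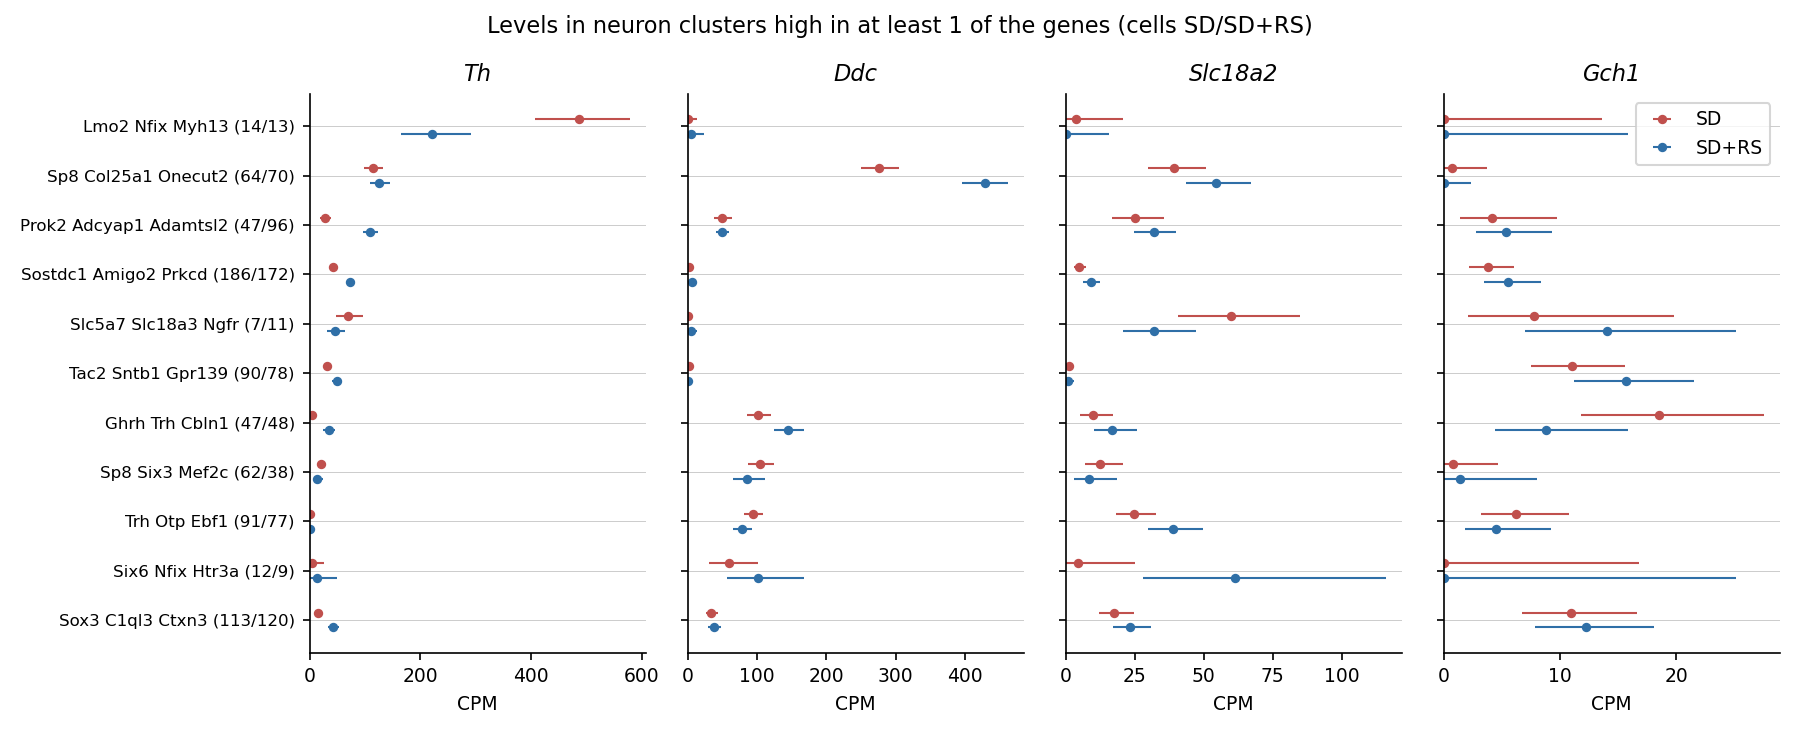
Level (CPM) of Th, Ddc, Slc18a2 and Gch1 in 11 neuron clusters, each among the highest in at least 1 of them, with 95% Poisson intervals, SD in red and SD+RS in blue; each cluster is named by its leading genes, with its cells in SD and SD+RS. The Sp8 Col25a1 Onecut2 cluster is high in the first 3 genes and near 0 in Gch1, a gene with a median of 1.12 and 1.21 CPM over the 36 clusters. The Lmo2 Nfix Myh13 cluster is high in Th alone.

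Across the 36 clusters the levels of the genes followed each other only in part. On log2(CPM + 1), Pearson's r between Ddc and Slc18a2 was 0.53 in SD and 0.59 in SD+RS, between Th and Slc18a2 0.31 and 0.48, and between Th and Ddc -0.00 and 0.14. Clusters of 1 library share its depth and chemistry, so these values are a description. The gene most like Th was Rex1bd (r of 0.50 and 0.47), followed by Rabac1, Oprk1, Ptn and Ctsl. C530008M17Rik was most like Ddc (0.59 and 0.58), followed by Dbpht2, Vwa5b1, Slc18a2 and Ikzf2. Asb4 was most like Slc18a2 (0.54 and 0.56), followed by Ddc, Peg10, Zfp609 and Chmp4b. For Gch1 these were Tmem114 (0.63 and 0.61), Mageh1, Ctsl, Chgb and Bsg.

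Three-gene neurons were compared with neurons that held none of the 5 genes, 2300 in SD and 2453 in SD+RS. At least 2-fold higher in both libraries were 0.492% of 6303 genes, and at least 2-fold lower 6.55% of 14246. The 2 shares cover different genes and cannot be compared. The higher one was limited to genes with at least 20 UMIs in three-gene neurons of both libraries, and the lower one also took in genes with fewer. Sp8, a transcription factor of olfactory and forebrain interneurons, led the genes found in at least 20% of three-gene neurons in both libraries. It had a UMI in 42.5% against 1.57% of cells in SD and 23.3% against 1.30% in SD+RS. Drd2, the dopamine autoreceptor gene, was in 55.0% against 13.3% and in 55.8% against 12.6%, a level 5.09-fold and 4.54-fold higher. Other leading genes were Onecut3, D930028M14Rik, Rarb, Col25a1, Kcnmb2, Crhbp, Gm45768, Tac1, Kcna5, Tox3, Kctd8, Rbp4, Zfpm2, Itm2a, B3gat2, Dach1 and Sulf1, each at least 2.56-fold higher in both libraries. Sp8, Col25a1, Crhbp and Onecut3 also lead the Sp8 Col25a1 Onecut2 cluster. That cluster held 22 of the 40 three-gene neurons in SD and 18 of the 43 in SD+RS. Its part in these differences was not tested.

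**Figure D4:**
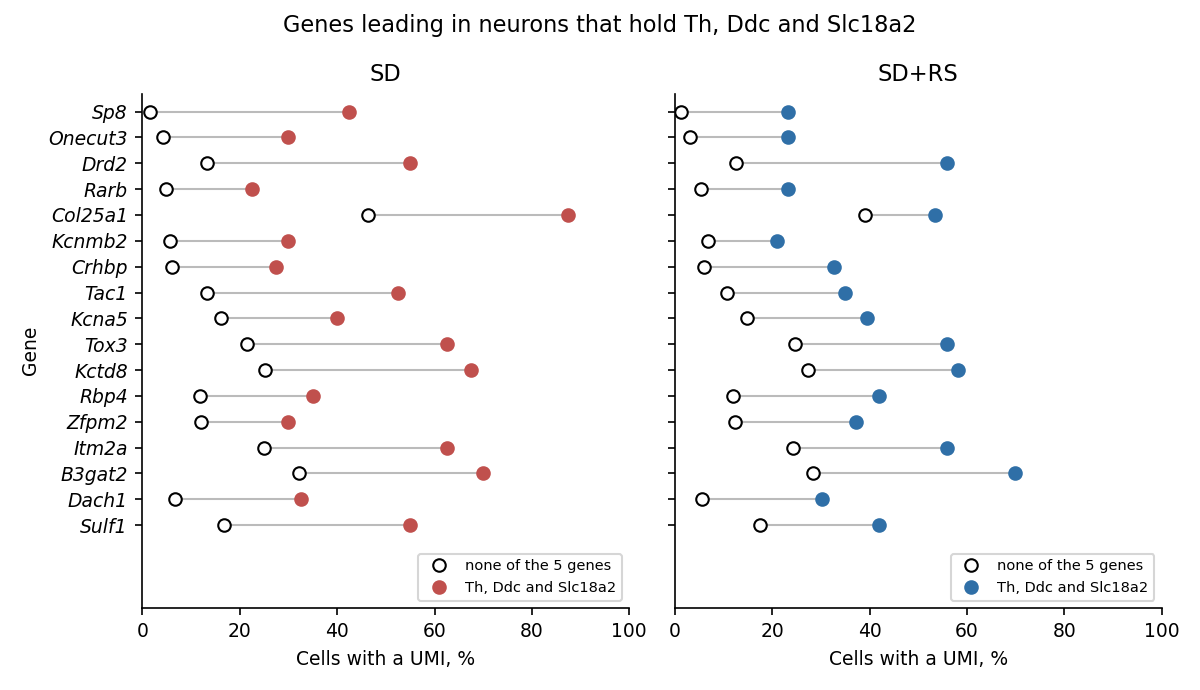
Share of cells (%) with a UMI of each of 17 leading genes in three-gene neurons (filled) and in neurons with none of the 5 genes (open), in SD (left, red) and SD+RS (right, blue). Drd2 is in 55.0% and 55.8% of three-gene neurons.

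Of 26 regulators of dopamine neuron fate, 3 were at least 2-fold higher in three-gene neurons of both libraries: Isl1 (2.54-fold and 2.29-fold), Onecut2 (2.54-fold and 3.99-fold) and Onecut3 (5.41-fold and 6.91-fold). Nr2f2 was at least 2-fold lower, and Pax6, also counted as lower, rests on 0 UMIs, with an interval that includes no difference. Among 21 markers of preoptic and hypothalamic dopamine neurons, Sncg was 2.51-fold and 3.85-fold higher, and Kiss1 passed on 1 UMI in each library. Onecut2, Onecut3 and Sncg are also leading genes of the Sp8 Col25a1 Onecut2 cluster, whose part in these differences was not tested. At least 2-fold lower, among others, were Esr1, Prlr, Tac2, Penk and Slc17a6, the last of which marks glutamatergic neurons. Gad1, which marks GABAergic neurons, was found in 97.5% of three-gene neurons in SD and in all 43 in SD+RS.

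None of the 7 genes that make or recycle the cofactor was 2-fold higher or lower in both libraries, and Qdpr, which regenerates it, was 1.31-fold and 1.43-fold higher. Of the 6 breakdown genes none was 2-fold higher. Aldh1a1 had 0 UMIs in three-gene neurons, too few expected from its 1.12 and 0.588 CPM in the other neurons to call it lower. Of the 5 dopamine receptor genes, Drd2 was at least 2-fold higher. Drd5 had 1 and 0 UMIs, with an interval that includes no difference. None of the 10 genes of other monoamine systems reached 20 UMIs, and Tph2, Hdc, Slc6a4, Slc18a1 and Dbh had 0 UMIs in three-gene neurons of both libraries.

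Markers of other cell types differed between some of these groups. The endothelial marker sum was 52.1 CPM in SD and 61.04 CPM in SD+RS in three-gene neurons, against 21.7 and 21.1 CPM in neurons with none of the 5. Itm2a, 1 of the 5 markers and also 1 of the leading genes above, accounted for 49.2 and 60.01 CPM in three-gene neurons and for 17.5 and 17.3 CPM in the others. In Gch1 neurons the sum was 30.5 and 83.7 CPM, against 21.6 and 21.3 CPM without Gch1. The oligodendrocyte sum in SD+RS was 291 CPM in neurons with Ddc against 96.6 CPM without, while the median per cell was 1 UMI in both. Their part in these results was not tested.

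Between the libraries, no member differed by 1.5-fold in neurons as a whole, a size that 0.754% of 13799 genes reached in the higher and 1.43% in the lower direction. The log2 ratio of SD+RS over SD was 0.20 (0.09 to 0.31) for Th, 0.20 (0.13 to 0.27) for Ddc and 0.31 (0.14 to 0.48) for Slc18a2, beside a median of -0.02 over all genes. It was -0.00 (-0.29 to 0.28) for Gch1 and -0.31 (-2.00 to 1.35) for Slc6a3. The shares of three-gene neurons, 1.07% and 1.06%, lay inside each other's intervals.

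The Th ratio over all neurons was a balance of clusters that differed in opposite directions. In the Prok2 Adcyap1 Adamtsl2 cluster Th was at 27.5 CPM (18.96 to 38.7) in SD and 109.8 CPM (96.6 to 124) in SD+RS, a log2 ratio of 2.00 (1.47 to 2.57), where 1.79% of genes were at least 1.5-fold higher. Only 7 of its 47 SD cells and 20 of its 96 SD+RS cells held Th, and 1 SD+RS cell carried 66 of the 248 UMIs. Without this cluster the ratio over neurons was 0.00 (-0.11 to 0.12). It was 0.13 (0.01 to 0.25) without Sostdc1 Amigo2 Prkcd, 0.31 (0.19 to 0.42) without Lhx8 Cdh23 Cox6a2 and 0.31 (0.20 to 0.43) without Lmo2 Nfix Myh13. The ratio in the cluster was 2.92 (1.84 to 4.26) in cells with Xist only and 2.47 (1.59 to 3.48) in cells with Y-linked UMIs only.

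Of 9 clusters with at least 20 Th UMIs in each library, 4 were at least 1.5-fold higher in SD+RS and 2 lower. Over the 36 clusters, 1.38% to 4.33% of the genes with as many UMIs were at least 1.5-fold higher and 2.07% to 5.15% lower. The other higher ones were Sostdc1 Amigo2 Prkcd (0.77, 0.50 to 1.04, where 1.89% of genes were as much higher), Tac2 Sntb1 Gpr139 (0.63, 0.22 to 1.04, 2.69%) and Sox3 C1ql3 Ctxn3 (1.45, 0.84 to 2.11, 2.61%). Split by sex, the Th ratio in Sostdc1 Amigo2 Prkcd was 0.55 (0.22 to 0.89) with Xist only and 0.35 (-0.31 to 0.99) with Y-linked UMIs only, both under 1.5-fold. In Tac2 Sntb1 Gpr139 it was 0.88 (0.36 to 1.42) and -1.08 (-3.01 to 0.38), the latter on 45 and 4 UMIs. In Sox3 C1ql3 Ctxn3 it was 0.60 (-0.27 to 1.55) and 2.29 (1.40 to 3.26). This cluster too rests on few cells, with Th held by 8 of 113 SD and 13 of 120 SD+RS cells. There 3 cells carried 24 of the 30 Th UMIs in SD, and 3 carried 55 of the 84 in SD+RS. The lower ones were Fibcd1 Gbx1 Etv1 (-1.05, -1.79 to -0.33, 3.27%) and Brs3 Calcr Prok2 (-1.49, -2.35 to -0.67, 3.34%). These rest on few cells: Th was held by 7 SD and 5 SD+RS cells in the former and by 5 and 7 in the latter. In Brs3 Calcr Prok2 cells with Y-linked UMIs only the ratio was -0.39 (-1.37 to 0.52). In the Sp8 Col25a1 Onecut2 cluster the Th ratio was 0.15 (-0.16 to 0.45). Split by sex it was -0.23 (-0.64 to 0.18) with Xist only and 0.83 (0.22 to 1.42) with Y-linked UMIs only.

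Ddc had 3 of 22 such clusters at least 1.5-fold higher and 0 lower. The ratio was 0.63 (0.45 to 0.81) in Sp8 Col25a1 Onecut2, where 2.07% of genes were as much higher, 0.71 (0.36 to 1.06) in Pmaip1 Six3 Rtn4rl1 (3.45%) and 0.75 (0.32 to 1.19) in Sp9 Fam81a Cpne8 (2.41%). In Pmaip1 Six3 Rtn4rl1 the ratio was 2.41 (1.53 to 3.44) in cells with Xist only, 24 in SD and 65 in SD+RS, and -2.39 (-4.30 to -0.98) in those with Y-linked UMIs only, 71 and 20. In Sp9 Fam81a Cpne8 it was 1.65 (0.56 to 2.99) and 1.0 (-0.39 to 2.15). Slc18a2 had 3 of 6 higher, at 1.06 (0.31 to 1.86, 1.46%) in Crh Foxp2 Zeb2, 0.88 (0.07 to 1.71) in Sostdc1 Amigo2 Prkcd and 0.65 (0.08 to 1.22, 2.53%) in Trh Otp Ebf1. Within cells of either sex, the Slc18a2 intervals of these 3 clusters all included 0. Gch1 had 2 such clusters, neither of them past 1.5-fold.

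The Ddc ratio differed in sign by sex, and how many other genes did so was not counted. In neurons with Xist UMIs only, Ddc was at 29.6 CPM in SD and 39.5 CPM in SD+RS, a log2 ratio of 0.42 (0.31 to 0.53). In neurons with Y-linked UMIs only it was at 34.1 and 28.8 CPM, a ratio of -0.24 (-0.38 to -0.11). In the Sp8 Col25a1 Onecut2 cluster the ratios were 0.91 (0.65 to 1.19) and -0.49 (-0.97 to -0.04). Th had 0.09 (-0.07 to 0.24) and 0.25 (0.05 to 0.45), and Slc18a2 0.16 (-0.08 to 0.41) and 0.24 (-0.09 to 0.56). The mix of neuron clusters also differed by sex and library. The Cxcl14 Sp9 Lamb3 cluster had 7 Xist-only and 64 Y-linked-only cells in SD, against 105 and 1 in SD+RS. The part of this mix in the Ddc ratios was not tested.

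**Figure D5:**
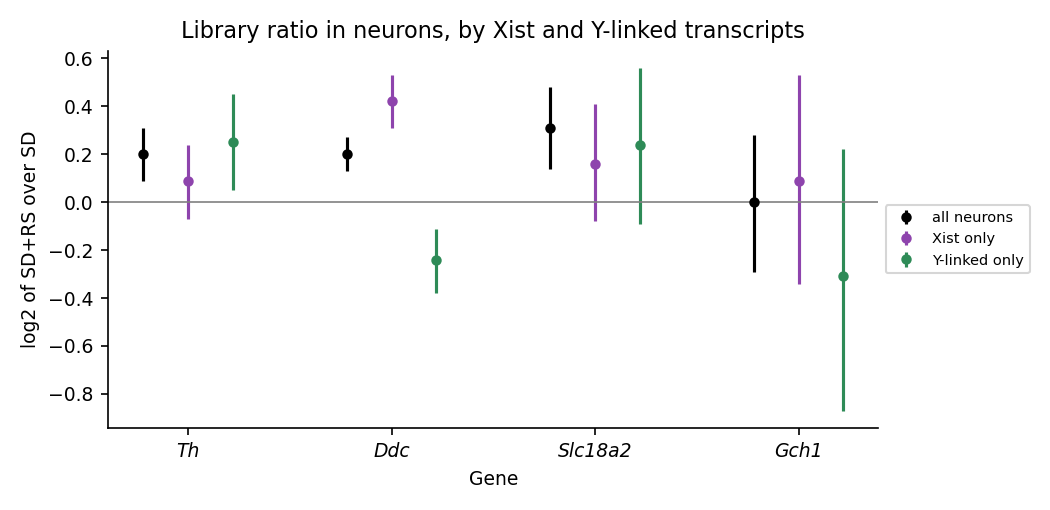
Log2 ratio of SD+RS over SD of Th, Ddc, Slc18a2 and Gch1 in all neurons (black), in neurons with Xist UMIs only (purple) and in neurons with Y-linked UMIs only (green), with 95% conditional binomial intervals. Ddc is the gene whose intervals lie on opposite sides of 0, at 0.42 and -0.24.

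Within three-gene neurons, 3.71% of 6303 genes were at least 1.5-fold higher in SD+RS and 2.16% lower. The clusters these neurons lay in differed between SD and SD+RS, with 22 and 18 in Sp8 Col25a1 Onecut2. Sox3 C1ql3 Ctxn3 and Prok2 Adcyap1 Adamtsl2 each held 3 and 7 of them, and Lhx8 Cdh23 Cox6a2 held 3 and 6. The part of this difference in the ratios of three-gene neurons was not tested. The genes highest by the interval bound were Cck, Gal, Xist, Vgf, Pde1a, Scg2, Crtac1, Cited1, Odc1 and Jun. Cck was held by only 4 SD and 8 SD+RS cells, with 80.7% and 53.3% of its UMIs in 1 cell. Gal, which encodes the neuropeptide galanin, was held by 18 SD and 21 SD+RS cells, with a log2 ratio of 1.67 (1.55 to 1.80), and 47.1% of its SD and 31.5% of its SD+RS UMIs were in 1 cell. Xist-only cells made up 15 of the 40 three-gene neurons in SD and 24 of the 43 in SD+RS. Scg2, a secretory granule protein gene, was held by 36 and 37 cells with a ratio of 1.16 (1.01 to 1.32), and its highest cell carried 10.0% of the SD and 8.37% of the SD+RS UMIs. The genes lowest were Oxt, Cnr1, AC149090.1, Mef2c, Six3, Fxyd7, Nrgn, Mirg, Calb2 and Gstp1. The Oxt value rests on 1 SD cell of the Oxt Avp Prph cluster, which had 32106 of 32143 Oxt UMIs.

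The 14 core immediate early genes, which are switched on within minutes of neuronal activity, were summed. In three-gene neurons the sum was 163 CPM (139 to 190.1) in SD and 299 CPM (266 to 336) in SD+RS, a log2 ratio of 0.87 (0.59 to 1.16). The share of three-gene neurons with any of these genes was not higher, at 87.5% in SD and 65.1% in SD+RS. Junb had 51 and 100 UMIs in 55.0% and 41.9% of them, and Fos 33 and 55 UMIs in 32.5% and 30.2%. In all cells of the Sp8 Col25a1 Onecut2 cluster the sum was 201 CPM (179 to 225) and 177 CPM (157 to 199), a ratio of -0.18 (-0.42 to 0.06). In three-gene neurons outside that cluster, 18 in SD and 25 in SD+RS, it was 237 CPM (196 to 283) and 469.5 CPM (415 to 529). The sum in all neurons with Th was 267 CPM (256 to 277) and 434 CPM (421 to 448), and in neurons with Gch1 263 CPM (249 to 277) and 475 CPM (456 to 494). With Ddc it was 210.3 CPM (205 to 216) and 253 CPM (247 to 259), and with Slc18a2 188 CPM (177 to 199) and 241 CPM (229.7 to 253). The log2 ratios were 0.70 with Th, 0.85 with Gch1, 0.26 with Ddc and 0.36 with Slc18a2, beside 0.15 (0.13 to 0.18) in all neurons. In neurons with none of Th, Ddc and Slc18a2 the sum was 219.5 CPM (216 to 224) and 219 CPM (215 to 223).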

How the data were processed

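The preoptic area of mice was profiled in 2 libraries, SD and SD+RS. The authors deposited UMI counts per gene and cell, made with Cell Ranger on mm10 per the submitters' processing notes (3.0.2 per the file headers). The authors' deposited tables of cluster markers (Seurat 4.0.4 per the submitters' processing notes) give a fraction of cells, a p-value over cells and a difference taken as a natural log; only the fractions are printed, as percentages.

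Cells with under 500 genes were left out, and Scrublet in scanpy 1.11.5 marked 590 SD (5.84%) and 276 SD+RS (3.51%) cells as doublets. Clusters came from 2000 variable genes, 40 principal components, 20 neighbours and leidenalg 0.10.2 (resolution 1.5 for neurons). Class names came from marker lists. Levels (CPM) are a gene's summed UMIs scaled to 1000000 summed UMIs, with SciPy 1.17.1 intervals, checked on simulated data. Thinning was computed as an expected share. Total depths were 132191585 and 123500649 UMIs.

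The 5 genes, the gene lists and the clustering were chosen with earlier results of these data known. Genes were named as up to 6 of each list by neuronal level plus any 2-fold higher, the 5 most alike across clusters, the 20 leading and the 10 highest and 10 lowest between libraries; other names were chosen after their values were seen. Some genes that these rules pick are not reported here.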

Additional observations from a re-analysis of the deposited data

Results flagged for a closer look

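Ddc in neurons went opposite ways between the libraries in cells of the 2 sexes: the log2 ratio of SD+RS over SD was 0.42 in neurons with Xist UMIs only and -0.24 in neurons with Y-linked UMIs only. The intervals, 0.31 to 0.53 and -0.38 to -0.11, cover counting error only. The difference between the sexes was not tested, since each library is 1 pool, and how many other genes went opposite ways was not counted. In endothelial cells the Ddc ratio was 0.04 (-0.22 to 0.30) with Xist only and 0.63 (0.16 to 1.09) with Y-linked UMIs only.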

How the results depend on the processing

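Of 110 values recomputed under other settings, 95 stayed inside the main interval, 14 moved outside it and 1, Ddc, changed sign outside it. The Slc6a3 ratio also changed sign, to 0.25 with Y-linked-only cells, inside its wide interval. The log2 ratio of Ddc was 0.42 with Xist-only cells, -0.24 with Y-linked-only cells and 0.12 without the Sp8 Col25a1 Onecut2 cluster. That of Th was 0.09 with Xist-only cells and 0.00 without the Prok2 Adcyap1 Adamtsl2 cluster, and that of Gch1 was -0.31 with Y-linked-only cells. The share of three-gene neurons in SD and SD+RS was 0.403% and 0.516% with 2 UMIs of each gene, 0.242% and 0.246% with 3 UMIs, 0.163% and 0.256% after thinning to 5000 UMIs and 0.510% and 0.619% after thinning to 10000 UMIs. It was 1.64% in SD+RS with Y-linked-only cells. The settings that leave out clusters were chosen after seeing the data. No neuron held all 5 genes under any setting run. Where a setting only left out neurons or UMIs, this share of 0 could not change. Such fixed values are counted among the 95 above and say nothing about stability. The immediate early gene ratio in three-gene neurons was 0.99 outside the Sp8 Col25a1 Onecut2 cluster. Depth limits Slc6a3 and, with a median of 1 UMI in the neurons that hold them, Slc18a2 and Gch1. No paired analysis was possible because each group is 1 library.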

Other observations

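Mural cells, microglia and oligodendrocyte precursors held few UMIs of the 5 genes. Gch1 in microglia was at 5.31 CPM (1.95 to 11.6) in SD and 9.19 CPM (3.97 to 18.1) in SD+RS. Ddc in mural cells was at 7.13 CPM (2.31 to 16.6) and 12 CPM (3.89 to 27.99).

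The small cholinergic cluster led by Slc5a7, Slc18a3 and Ngfr, with 7 SD and 11 SD+RS cells, held Th at 69.4 CPM (48.6 to 96.1) and 45.9 CPM (32.2 to 63.6) and Slc18a2 at 59.8 CPM (40.6 to 84.9) and 31.9 CPM (20.6 to 47.1). Ddc there was 0 UMIs in SD and 4 in SD+RS. Few cells carried the Th UMIs: 3 cells had 35 of 36 in SD, and 1 had 27 of 36 in SD+RS. Slc18a2 was held by 5 cells in each library.

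The authors' deposited table for both libraries lists Gch1 in 53.1% of cells of cluster i17 against 4% of other cells. Its leading genes are Klf2, Cldn5 and Ly6c1, which are known from endothelial cells.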
